A study of Saccharomyces cerevisiae with 8 samples.

Results

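The average difference between the libraries titled HP and those titled nHP was taken over 2 strains of baker's yeast. Both derive from Saccharomyces cerevisiae BY4741, which the labels give as haploid and of mating type a. All 8 libraries of the series entered the comparison, 4 titled HP against 4 titled nHP, with strain as a blocking factor. The mutation strain is labelled as tolerating oxidation stress better than the control strain, and which gene is mutated is not stated in the labels. Each strain has 2 HP and 2 nHP libraries. Both strains were grown in synthetic complete medium without uracil and collected in mid-exponential phase. The series description has both strains grown with and without hydrogen peroxide, whereas the medium entry of the labels gives peroxide to every control strain library and to no mutation strain library. HP and nHP are therefore used as titles only. If the medium entry were right, the HP and nHP libraries of a strain would share a medium. Whether the 2 libraries of a group came from separate cultures is not stated, and p-values therefore cover only the spread among these samples, which may be technical.

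Genes with an adjusted p under 0.05 in edgeR's quasi-likelihood test are referred to as called, with Benjamini-Hochberg adjustment across the 6174 genes tested. A gene rose or fell in both strains when it was called in the pooled test, had the same sign in each strain and had no overlap between HP and nHP libraries within either strain. Of 6174 genes, 113 were called (1.83%), and all 113 met the further conditions. These conditions use the same libraries as the pooled test, whose additive model counts change that differs between the strains as spread. That all 113 met them is therefore a description and no further evidence that the strains agree. The 86 rises made up 1.39% of the genes tested and the 27 falls 0.437%. Rises were led by genes for sulfate assimilation and methionine, with 20 of 34 measured list members rising and none falling. The falls of over 2-fold were in genes for metal uptake, ZRT1 for zinc and CTR1 and FRE1 for copper, and in the unnamed ID YPR123C. Levels are CPM, that is counts divided by the library total and multiplied by 1000000, scaled by TMM, a composition correction. Standard errors of log2 fold changes follow the ± sign.

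The libraries held 8296523 to 11202362 counts, so 3 counts correspond to 0.266 to 0.374 CPM. No library had a count for LEU2 or MET17, both of them deletions of BY4741. URA3, another deletion of BY4741, stood at 1801 to 4205 CPM over the libraries, so its level went against that deletion. Where its reads came from was not tested. The level of HIS3, deleted in part in BY4741, is not given here. The 6 mating type a markers summed to 2009.6 to 2876 CPM in the control strain libraries and to 49.95 to 80.9 CPM in the mutation strain libraries, so their level in the mutation strain went against the labelled mating type. The 4 alpha markers summed to 57.4 to 69.6 CPM in the control strain and 45.9 to 68.7 CPM in the mutation strain. None of these 10 markers was called for HP over both strains. TAF10 (YDR167W), shared by the transcription complexes TFIID and SAGA, lay at 87.0 to 112 CPM in the control strain and at 11637 to 16691 CPM in the mutation strain, with a pooled HP difference of 0.15 ± 0.18 that was not called (edgeR's quasi-likelihood test, adjusted p = 0.568).

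Yeast takes up sulfate through the permeases Sul1 and Sul2, activates it and reduces it to sulfide, and joins the sulfide to O-acetylhomoserine to give homocysteine. Homocysteine is methylated to methionine, which is turned into S-adenosylmethionine, or passed to cysteine and glutathione by transsulfuration. The activator Met4 drives these genes together with the DNA-binding proteins Cbf1, which recognises CACGTG, and Met31 and Met32, which recognise TGTGGC. The ubiquitin ligase subunit Met30 holds Met4 in check when sulfur compounds are plentiful. BY4741 lacks MET17, whose enzyme makes homocysteine from sulfide, and both strains carry that deletion. Zinc and copper uptake genes are under the activators Zap1 and Mac1, which act when the metal is scarce.

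The stretches below show these letters in front of 6 of the sulfur genes with the larger rises, and the element of the zinc activator in front of ZRT1, the gene with the largest fall. They come from the R64 reference genome, run 5′ to 3′ on the strand of the gene and lie within 300 bases before its start codon. Capitals mark the Cbf1 letters and the Met31 and Met32 letters on either strand (GCCACA when read in reverse), and in ZRT1 the Zap1 element. The window between MMP1 and MHT1, which point away from each other, serves both genes.
MET10 (chrVI:213043-213112, plus strand): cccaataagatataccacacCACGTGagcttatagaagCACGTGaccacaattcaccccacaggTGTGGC
MET14 (chrXI:439564-439633, minus strand): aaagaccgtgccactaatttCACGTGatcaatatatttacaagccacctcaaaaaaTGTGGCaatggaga
MET3 (chrX:455965-456034, plus strand): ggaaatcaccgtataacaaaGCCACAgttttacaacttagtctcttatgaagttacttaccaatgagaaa
STR3 (chrVII:156167-156236, minus strand): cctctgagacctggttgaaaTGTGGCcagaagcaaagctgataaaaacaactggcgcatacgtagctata
MUP1 (chrVII:599117-599186, plus strand): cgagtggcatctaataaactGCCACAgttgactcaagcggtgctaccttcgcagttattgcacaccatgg
MMP1 (chrXII:17739-17808, plus strand): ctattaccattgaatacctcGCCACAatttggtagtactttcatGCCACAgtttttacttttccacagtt
ZRT1 (chrVII:20754-20823, plus strand): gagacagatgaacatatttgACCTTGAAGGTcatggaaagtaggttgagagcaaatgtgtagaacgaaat

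Searched on both strands over the 300 bases, TGTGGC was found in front of 13 of the 20 rising sulfur genes (65.0%), 28 of the 84 rising genes with a mapped promoter (33.3%), 1 of 26 falling genes (3.85%) and 472 of 5727 genes tested (8.24%). CACGTG was found in 30.0% of the rising sulfur genes, 15.5% of all rising genes, none of the falling genes and 3.54% of the genes tested. Each of the 2 stood in front of 4 of the 20 rising sulfur genes, MET10, MET14, MET16 and MET30, against 0.402% of the genes tested. Of the 14 list members that did not pass, 4 had TGTGGC, 3 had CACGTG and 6 had either. Of the 20 rising sulfur genes 5 had neither in the window, SUL1, MET2, MET6, MET32 and SAM3. Among the 41 rising genes on no list, 26.8% had TGTGGC. That group included MET13, OPT1, DUG2, DUG3 and YCT1, so it was not free of sulfur and glutathione genes. The Zap1 element stood in front of 1 falling gene, ZRT1, and of 6 genes tested (0.105%). TTTGCTC, the Mac1 element, stood in front of 2 of 26 falling genes (7.69%) and 5.31% of the genes tested. AGGGG, the stress response element, was in 34.5% of rising genes and 22.6% of the genes tested, and TTACTAA, the Yap1 element, in 9.52% and 8.0%. TGACTCA, the Gcn4 element, stood in front of 4 of the 20 rising sulfur genes. It was in 9.52% of all rising genes, none of the falling genes and 2.69% of the genes tested. A higher share among the rising genes was therefore not particular to TGTGGC and CACGTG. These shares are descriptions with no test, and some of the elements searched were chosen after the values were seen.

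The steps of sulfate reduction rose in both strains. MET3 (YJR010W), which encodes ATP sulfurylase, lay at 43.2 and 44.6 CPM in the nHP control libraries, 232 and 258 in the HP control libraries, 38.5 and 42.2 in the nHP mutation libraries and 216 and 136 in the HP mutation libraries. MET14 (YKL001C), for adenylylsulfate kinase, lay at 34.1 and 35.2 CPM against 161 and 198 with HP in the control strain, and at 30.0 and 37.2 against 130 and 95.6 in the mutation strain. MET10 (YFR030W), for the alpha subunit of sulfite reductase, lay at 75.4 and 71.5 CPM against 262 and 275, and at 60.2 and 50.5 against 272 and 217. In each of these genes every HP library stood above every nHP library of both strains. Log2 fold changes over both strains were 2.30 ± 0.15 for MET3 (edgeR's quasi-likelihood test, adjusted p = 9.75e-05), 2.06 ± 0.17 for MET14 (0.000252) and 2.01 ± 0.11 for MET10 (3.91e-05). MET5 (YJR137C), the beta subunit of sulfite reductase, rose by 1.94 ± 0.17, and MET16 (YPR167C), the PAPS reductase, by 1.43 ± 0.13. MET1 (YKR069W) and MET8 (YBR213W), which make the siroheme cofactor of sulfite reductase, rose by 1.91 ± 0.12 and 0.71 ± 0.12. The MET8 call ended when any 1 of 5 libraries was left out, namely HP control replicate 1, HP mutation replicate 1, either nHP control replicate or nHP mutation replicate 1, with adjusted p up to 0.0926.

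Both sulfate permease genes rose, SUL2 (YLR092W) more than SUL1 (YBR294W). SUL2 lay at 48.5 and 44.2 CPM in the nHP control libraries and 136 and 132 in the HP control libraries, and at 39.0 and 32.0 against 140 and 107 CPM in the mutation strain. Its log2 fold change was 1.66 ± 0.12 (edgeR's quasi-likelihood test, adjusted p = 0.000111), and that of SUL1 was 0.52 ± 0.08. The SUL1 call ended without HP control replicate 1, HP mutation replicate 1, nHP control replicate 2 or either nHP mutation replicate, with adjusted p up to 0.0764.

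Genes for methionine and S-methylmethionine had some of the largest rises of all. STR3 (YGL184C), the cystathionine beta-lyase that makes homocysteine, stood at 10.7 and 13.4 CPM in the nHP control libraries, 109 and 131 in the HP control libraries, 5.73 and 4.82 in the nHP mutation libraries and 75.3 and 44.2 in the HP mutation libraries. MHT1 (YLL062C), which uses S-methylmethionine to methylate homocysteine, stood at 6.71 and 7.03 against 42.2 and 49.6 CPM in the control strain, and at 4.11 and 3.22 against 50.6 and 30.6 CPM in the mutation strain. The lowest HP library was above every nHP library of either strain in both genes. STR3 rose 10.5-fold (log2 3.39 ± 0.19, edgeR's quasi-likelihood adjusted p = 3.91e-05) and MHT1 8.33-fold (log2 3.06 ± 0.22, adjusted p = 0.000124). MMP1 (YLL061W), the S-methylmethionine permease gene beside MHT1, went from 25.1 and 23.6 to 107 and 126 CPM in the control strain and from 15.3 and 17.2 to 120 and 89.8 CPM in the mutation strain, a log2 fold change of 2.47 ± 0.14. MET2 (YNL277W), the homoserine O-acetyltransferase, rose by 1.99 ± 0.14, and MET6 (YER091C), the methionine synthase, by 1.60 ± 0.13.

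Transporters of methionine and its derivative rose as well. MUP1 (YGR055W), the high-affinity methionine permease, lay at 162 and 158 CPM in the nHP control libraries, 631 and 705 in the HP control libraries, 157 and 144 in the nHP mutation libraries and 643 and 520 in the HP mutation libraries. Its log2 fold change was 2.06 ± 0.12 in the control and 1.95 ± 0.12 in the mutation strain, a difference of −0.11 ± 0.16, and 2.01 ± 0.10 pooled (edgeR's quasi-likelihood test, adjusted p = 3.91e-05). MUP3 (YHL036W), the low-affinity methionine permease, rose by 1.75 ± 0.13, and SAM3 (YPL274W), the S-adenosylmethionine permease, by 1.43 ± 0.13. The amino acid permease AGP3 (YFL055W) rose by 1.09 ± 0.16, a call that ended without HP control replicate 1 (adjusted p = 0.0555).

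Of the regulators, MET32 and MET30 rose, while MET4, MET31 and CBF1 did not pass. MET32 (YDR253C) lay at 11.0 and 12.2 CPM in the nHP control libraries, 33.1 and 38.1 in the HP control libraries, 9.59 and 8.91 in the nHP mutation libraries and 32.0 and 26.5 in the HP mutation libraries, with no overlap, and rose by 1.64 ± 0.11. MET30 (YIL046W), the inhibitor of Met4, rose by 0.90 ± 0.16, with 129 and 121 against 197 and 159 CPM in the control strain and 121 and 109 against 285 and 276 CPM in the mutation strain. Its call ended with any 1 library left out other than HP control replicate 2 and nHP control replicate 1, with adjusted p up to 0.143. The pooled log2 fold changes of MET4, MET31 and CBF1 were 0.33, −0.10 and 0.31.

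Of the 36 listed sulfur genes, 34 could be tested, since MET17 had no counts and MET28 had too few, and the 14 that did not pass included the transsulfuration genes CYS3 and CYS4 and the S-adenosylmethionine synthetases SAM1 and SAM2. The median log2 fold change of the 34 was 0.998 pooled, 1.10 in the control and 1.20 in the mutation strain, against 0.01, 0.00 and 0.02 over all genes tested. In the control strain by itself 24 of the 34 were called higher, where 1.44% of all genes were, and in the mutation strain 25 were called higher, where 25.2% of all genes were, and 1 lower. SAM1 (YLR180W) lay at 433 and 492 against 902 and 988 CPM with HP in the control strain, and at 661 and 880 against 734 and 676 CPM in the mutation strain. SAM1, SAM2, CYS3 and CYS4 had log2 fold changes of 1.03, 1.22, 0.81 and 0.71 in the control strain and of −0.13, 0.18, 0.05 and −0.03 in the mutation strain. The difference between the strains was called for each of these 4 genes in edgeR's quasi-likelihood test, with adjusted p of 0.00228, 0.00627, 0.00833 and 0.0153. Of all 34 members, 11 were called for that difference, where 29.2% of all genes were.

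**Figure D1:**
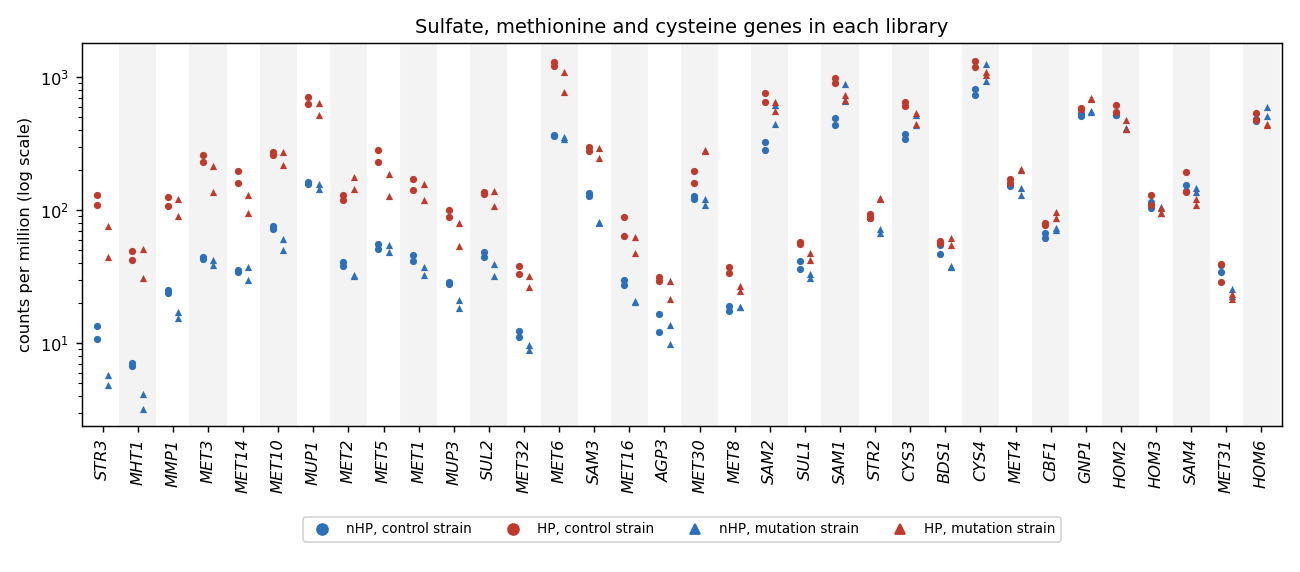
CPM on a log scale for the 34 measured sulfate, methionine and cysteine genes, ordered by pooled log2 fold change, with 1 point per library, circles for the control and triangles for the mutation strain, red for HP and blue for nHP. In STR3 at the left every HP library (44.2 to 131 CPM) lies above every nHP library (4.82 to 13.4 CPM), and at the right the colours mix.

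Other rising genes were outside the sulfur list, and those described here were chosen after their values were seen, apart from MXR1. MXR1 (YER042W), a methionine sulfoxide reductase, lay at 34.3 and 37.3 CPM in the nHP control libraries, 131 and 161 in the HP control libraries, 37.4 and 41.7 in the nHP mutation libraries and 130 and 109 in the HP mutation libraries. It rose by 1.81 ± 0.12 (edgeR's quasi-likelihood test, adjusted p = 0.000104), and all HP libraries were above all nHP libraries. OPT1 (YJL212C), a transporter of glutathione and small peptides, rose by 1.67 ± 0.12, from 41.6 and 38.1 to 95.0 and 118 CPM in the control strain and from 28.4 and 27.96 to 109 and 107 CPM in the mutation strain. DUG2 (YBR281C) and DUG3 (YNL191W), which break down glutathione, rose by 0.76 ± 0.08 and 1.25 ± 0.13. YCT1 (YLL055W), a cysteine transporter, rose by 1.24 ± 0.14, and SEO1 (YAL067C), a putative permease, by 2.39 ± 0.22. SER33 (YIL074C), a phosphoglycerate dehydrogenase of serine synthesis, rose by 1.06 ± 0.13, though it shares 85.6% sequence identity with SER3 and reads of the pair may have been split in counting. BNA3 (YJL060W), an aminotransferase of tryptophan breakdown, rose by 0.95 ± 0.09, and NCE103 (YNL036W), the carbonic anhydrase, by 0.86 ± 0.11. MXR1, OPT1, DUG2, DUG3, YCT1, SEO1, SER33, BNA3 and NCE103 kept their calls with each of the 8 libraries left out in turn. Of the 86 rises 33 did so, 16 of them in the sulfur list.

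Of 36 measured peroxide, thioredoxin and glutathione enzymes, 3 rose, MXR1, GTO1 and ECM4, where 1.39% of all genes rose, and none fell. GTO1 (YGR154C), an omega-class glutathione transferase, lay at 19.6 and 18.3 against 32.8 and 29.8 CPM in the control strain and at 20.9 and 17.1 against 40.5 and 39.8 CPM in the mutation strain, and rose by 0.90 ± 0.11. ECM4 (YKR076W), of the same class, rose by 0.70 ± 0.12. The median log2 fold change over the 36 was 0.17 pooled, 0.17 in the control and −0.02 in the mutation strain. By the control strain test alone 7 of the 36 were called higher, where 1.44% of all genes were, and none lower. By the mutation strain test 15 were called higher and 7 lower, where 25.2% and 24.1% of all genes were. Of 30 measured Yap1 targets 3 rose, against the same 1.39% of all genes, the nitroreductase-like HBN1 (1.14 ± 0.18), OSI1 (0.75 ± 0.12), induced by oxidative stress, and the NADPH dehydrogenase OYE3 (0.74 ± 0.13). Within the strains, 7 of the 30 were called higher in the control strain, and 10 higher and 9 lower in the mutation strain. Leaving out 1 library ended the calls of ECM4 in 6 cases, HBN1 in 3, OSI1 in 5 and OYE3 in 6. YAP1, SKN7, MSN2 and MSN4, transcription factors of stress, had pooled log2 fold changes of 0.02, −0.05, 0.11 and 0.03. The catalase gene CTT1, the cytochrome c peroxidase gene CCP1, the thioredoxin gene TRX2 and the thioredoxin reductase gene TRR1 stood at 0.47, 0.32, 0.19 and −0.15 pooled. In the same order they stood at 0.20, 0.11, 0.59 and 0.52 in the control strain. The mutation strain had 0.74, 0.52, −0.21 and −0.81. None of these 8 genes passed in the main test, and CTT1 and CCP1 were called without HP control replicate 2. For the mean of the within-strain differences, 3 of the genes named by the rule gained a call.

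Among the falls, ZRT1, CTR1 and FRE1 were the 3 that kept their calls with each library left out in turn. ZRT1 (YGL255W), the high-affinity zinc transporter, stood at 1173 and 1403 CPM in the nHP control libraries and 128 and 153 in the HP control libraries. In the mutation strain it stood at 419 and 448 CPM with nHP and 146 and 119 with HP. The HP libraries of the strains lay within 119 to 153 CPM, while the nHP control libraries were far above the nHP mutation libraries. ZRT1 fell by 2.45 ± 0.29 on the log2 scale (edgeR's quasi-likelihood test, adjusted p = 0.00291), with −3.19 in the control and −1.71 in the mutation strain. That difference of 1.48 ± 0.19 was called (adjusted p = 0.00104).

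CTR1 (YPR124W), the high-affinity copper transporter, lay at 158 and 241 CPM in the nHP control libraries, 35.0 and 39.0 in the HP control libraries, 129 and 117 in the nHP mutation libraries and 41.1 and 39.2 in the HP mutation libraries. FRE1 (YLR214W), a reductase of ferric iron and cupric copper at the cell surface, lay at 63.8 and 104 against 30.6 and 37.5 CPM in the control strain and at 68.3 and 54.7 against 25.4 and 25.2 CPM in the mutation strain. In both genes the highest HP library was below the lowest nHP library of either strain. CTR1 fell by 2.02 ± 0.19 and FRE1 by 1.29 ± 0.16 on the log2 scale (edgeR's quasi-likelihood test, adjusted p = 0.000715 and 0.00344). The unnamed ID YPR123C, whose number adjoins that of CTR1, fell by 2.34 ± 0.34. The strand setting of the counting is not given, so reads of adjoining or antisense genes cannot be told apart.

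Lists of metal genes held both directions, where 1.39% of all genes rose and 0.437% fell. Of 16 measured zinc regulon genes, ZRT1 and the alcohol dehydrogenase ADH4 fell and the membrane protein gene IZH4 rose, by 0.72 ± 0.13, a call that 5 of the 8 cases of leaving out 1 library ended. ADH4 (YGL256W), next to ZRT1, fell by 0.70 ± 0.14 with an adjusted p of 0.0494, at the edge of the threshold, and 7 of those cases ended its call. Of 11 copper genes, CTR1 and FRE1 fell and the metallothionein gene CRS5 rose by 0.996 ± 0.20, a call that 7 cases ended. Of 33 iron regulon genes, the biotin transporter gene VHT1 (1.03 ± 0.12), the ferroxidase gene FET3 (0.88 ± 0.12) and the heme oxygenase gene HMX1 (0.62 ± 0.13) rose and FRE1 fell. VHT1 (YGR065C) lay at 68.9 and 74.0 against 118 and 121 CPM in the control strain and at 90.2 and 80.2 against 216 and 206 CPM in the mutation strain, with the difference between strains called (0.57 ± 0.13, adjusted p = 0.00794). The FET3 call ended without nHP mutation replicate 1 (adjusted p = 0.0552), and that of HMX1 in 6 cases.

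The next falls were smaller. ANB1 (YJR047C), an eIF5A gene expressed without oxygen, fell by 0.81 ± 0.12, and AAC3 (YBR085W), a mitochondrial ADP/ATP carrier also expressed without oxygen, by 0.78 ± 0.11. AAC3 lay at 19.0 and 20.9 against 9.86 and 11.9 CPM in the control strain and at 14.0 and 14.5 against 9.14 and 8.47 CPM in the mutation strain. ANB1 shares 91.1% identity with HYP2, and reads may have been split between them. On the same list of 35 oxygen and heme regulated genes the cell wall mannoprotein genes DAN1 and TIR1, likewise expressed without oxygen, rose, by 2.27 ± 0.41 and 1.28 ± 0.22, so its members did not share a direction. Over all genes 1.39% rose and 0.437% fell. DAN1 was near the limit of 3 counts in the nHP mutation libraries, with 5 and 7 counts (0.62 and 0.87 CPM), against 11.8 and 13.0 CPM in the HP mutation libraries. DAN1 and TIR1 had log2 fold changes of 1.38 and 0.70 in the control strain and 4.04 and 1.89 in the mutation strain, and both calls ended in 6 of the 8 cases of leaving out 1 library. The AAC3 call ended without nHP control replicate 2, and that of ANB1 without HP control replicate 1 or nHP control replicate 2.

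The remaining named falls were KCC4 (−0.78), a kinase of the bud neck, TOS6 (−0.73), a cell wall protein gene, RTT107 (−0.66), which acts in DNA repair, DSE2 (−0.62), a glucanase of cell separation, AGA1 (−0.57), the anchor of a-agglutinin, TDA6 (−0.53) and RAD27 (−0.49), the flap endonuclease. Each lost its call in 4 to 7 of the 8 cases of leaving out 1 library. AGA1 lay at 149 and 181 against 109 and 106 CPM in the control strain and at 32.1 and 33.6 against 24.8 and 21.1 CPM in the mutation strain, the strain in which the mating type a markers were low. Of 37 measured cell wall mannoprotein genes, AGA1, DSE2 and the glucanase gene SCW11 fell and DAN1 and TIR1 rose, where 0.437% of all genes fell and 1.39% rose.

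**Figure D2:**
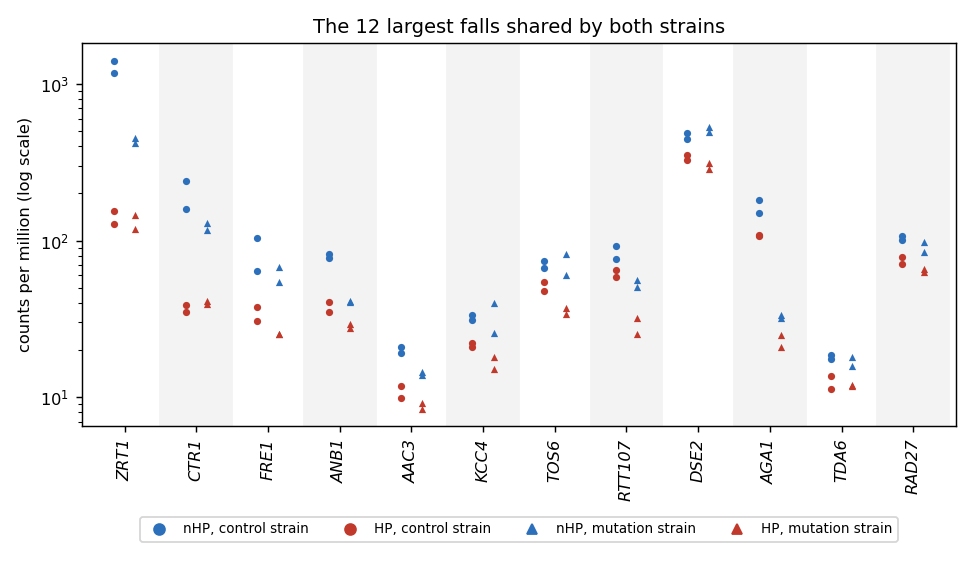
CPM on a log scale for the 12 named falls, ordered by pooled log2 fold change, with 1 point per library, circles for the control and triangles for the mutation strain, red for HP and blue for nHP. ZRT1 runs from 119 CPM in an HP library to 1403 CPM in an nHP library, and toward the right the gap between colours within a strain narrows.

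Calls of the strains overlapped in part. The control strain by itself had 121 calls (1.96%) and the mutation strain 3043 (49.3%), and 71 genes (1.15%) were called in each with the same direction. Those 71 were 58.7% of the control calls and 2.33% of the mutation calls. Of the 113 genes shared by the strains in the pooled comparison, 70 were also called in each strain separately, 57 rises and 13 falls. By the within-strain tests, 58 genes (0.939%) were called higher in each and 13 (0.211%) lower in each. The same sign in each strain was seen in 3430 of 6174 genes (55.6%), and the correlation of the within-strain log2 fold changes across genes was 0.23 (Pearson) and 0.15 (Spearman), a description since genes are not independent replicates. No overlap in either strain was seen for 577 genes on the higher side (9.35%) and 510 on the lower side (8.26%), called or not. The median size of a log2 fold change, whatever its sign, was 0.11 in the control and 0.33 in the mutation strain.

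Rises ran from 0.40 to 3.39 with a median of 0.90 and falls from −2.45 to −0.32 with a median of −0.56. A change of at least 2-fold in each strain was seen in 25 rises and 4 falls. Of the 86 rises 26 were called for a difference between the strains, 24 larger in the mutation strain and 2 in the control strain, and of the 27 falls 8 were, 3 larger in the mutation and 5 in the control strain. Over all genes tested the difference was called for 29.2%, which is close to both shares. Just inside the threshold were PIF1, MGA2 and ADH4 (adjusted p of 0.0493, 0.0494 and 0.0494 in edgeR's quasi-likelihood test) and just outside it ECM22, PBI2 and BUD22 (0.0520, 0.0540 and 0.0540).

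**Figure D3:**
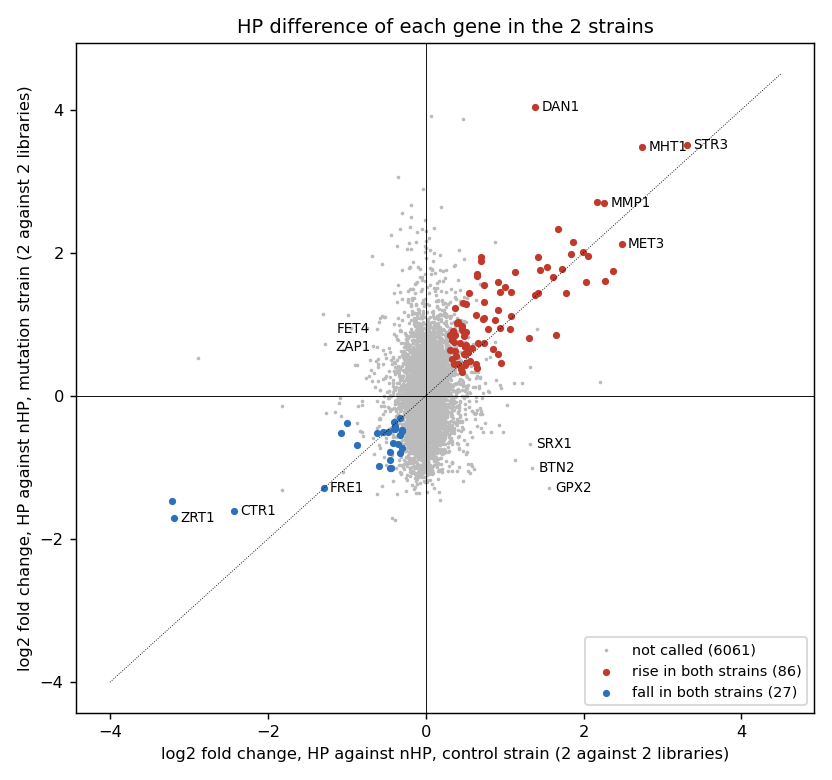
Log2 fold change of HP against nHP for each gene in the control strain (horizontal) and the mutation strain (vertical), each from 2 against 2 libraries, with the 86 shared rises in red, the 27 shared falls in blue and the other genes in grey. The dotted line marks equal change. STR3 and MHT1 lie at the upper right, ZRT1 at 3.19 below 0 on the control axis and 1.71 below 0 on the mutation axis, and the grey cloud is taller than wide.

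The number of calls depended on single libraries. Without HP control replicate 1 the pooled test called 46 genes, without HP mutation replicates 1 or 2 it called 49 or 57, without nHP control replicates 1 or 2 it called 87 or 44, without nHP mutation replicates 1 or 2 it called 43 or 66, and without HP control replicate 2 it called 1817. Testing the mean of the within-strain differences, which keeps strain-dependent change out of the spread, gave 2237 calls, and all 113 genes were among them. Both tests use the same libraries, so this is no separate support for the 113. The HP control libraries differed in the list of alternative carbon genes, with a mean level over its 34 genes of −0.04 in replicate 1 and −0.62 in replicate 2 on the log2 scale, relative to each gene's mean. The nHP mutation replicates 1 and 2 also differed on that list, at −0.21 and −0.63. The part of these differences in the counts of calls was not tested. The count of rising sulfur genes stayed between 16 and 24 under every setting, lowest without HP control replicate 1 and highest without HP control replicate 2, under DESeq2 and for the mean of the within-strain differences.

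Several lists with many calls in the mutation strain had no member shared by the strains. Since 1.83% of all genes were shared, a count of 0 in a list of this size is no result by itself. Of 118 ribosome biogenesis genes none rose or fell in both strains, with a median log2 fold change of 0.03 in the control and −0.87 in the mutation strain, where 111 were called lower (24.1% of all genes were). Of 34 genes for alternative carbon transport and fatty acid oxidation none was shared, with medians of −0.03 and 1.32. In the mutation strain 31 were called higher, where 25.2% of all genes were. Of 34 heat shock chaperone genes none was shared, with medians of 0.18 and −0.55. Of 137 cytosolic ribosomal protein genes none was shared, although 119 were called lower in the mutation strain, where 24.1% of all genes were. The difference between strains was called for 1 of the 137, where it was called for 29.2% of all genes. The median of the 137 was −0.16 in the control strain, where none was called, and −0.48 in the mutation strain. The sulfur list stood at 1.10 and 1.20 on the same scale.

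**Figure D4:**
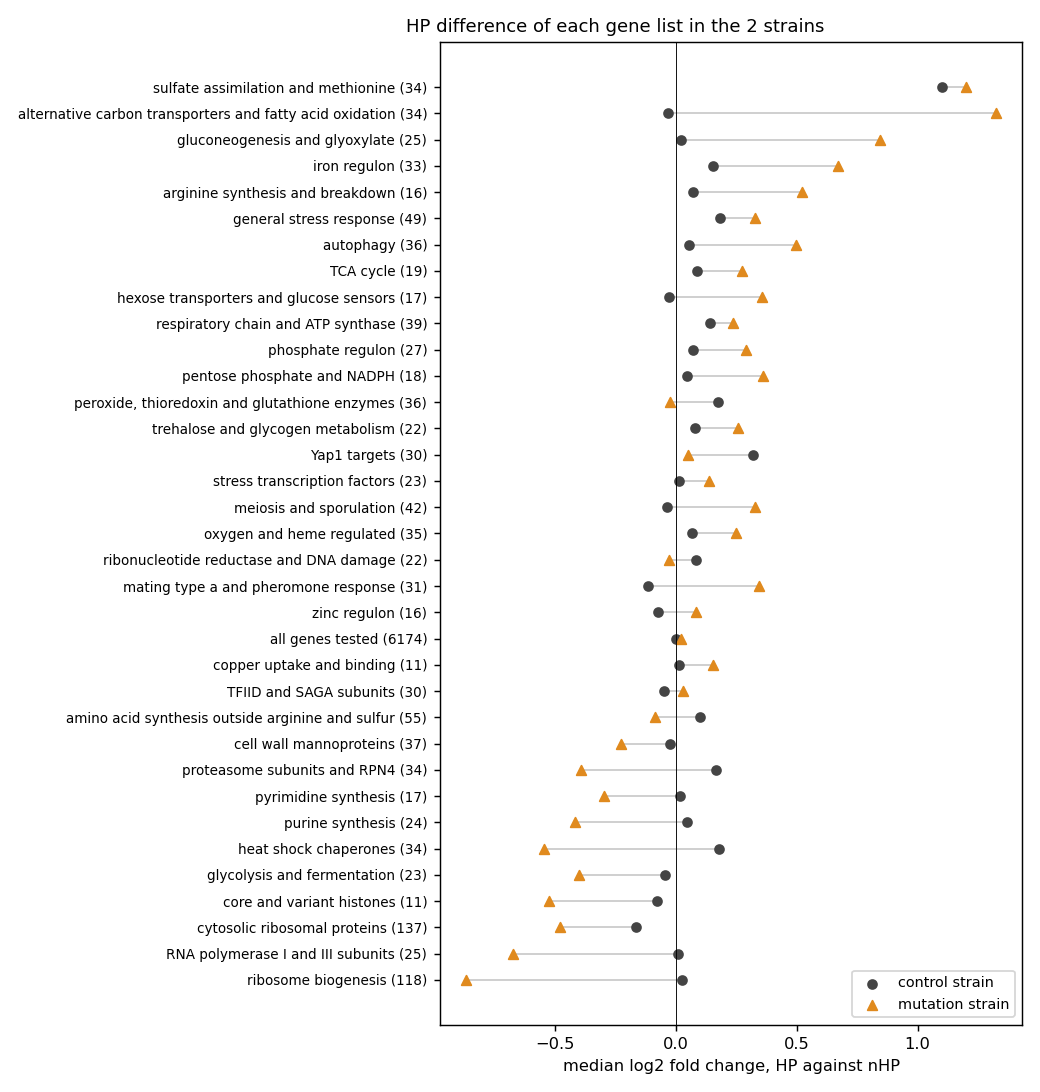
Median log2 fold change of HP against nHP for each gene list with at least 5 measured members, circles for the control and triangles for the mutation strain, with the number of genes tested in brackets. The sulfate and methionine list is at the top with medians of 1.10 and 1.20, and ribosome biogenesis is at the bottom with 0.03 and −0.87.

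A small group of genes was called in each strain with opposite directions, 8 higher in the control and lower in the mutation strain (0.13%) and 5 the other way (0.081%). GPX2 (YBR244W), a glutathione peroxidase, lay at 46.2 and 79.8 CPM in the nHP control libraries, 149 and 221 in the HP control libraries, 202 and 205 in the nHP mutation libraries and 87.2 and 80.0 in the HP mutation libraries. Its pooled log2 fold change of 0.13 ± 0.55 joins 1.56 in the control and −1.28 in the mutation strain. BTN2 (YGR142W), which sorts misfolded proteins, stood at 1.35 and −1.005, and SRX1 (YKL086W), the sulfiredoxin, at 1.33 and −0.67. In all 3 the nHP mutation libraries were above the nHP control libraries. FET4 (YMR319C), a low-affinity metal transporter, stood at −0.62 and 0.93, ZAP1 (YJL056C), the zinc activator, at −0.61 and 0.68, and FIG1 (YBR040W), a membrane protein of mating, at −1.30 and 1.14. The FIG1 value of the mutation strain rests on few counts, 5 and 9 with nHP (0.62 and 1.11 CPM) and 20 and 19 with HP. ZAP1 lay at 109 and 109 CPM in the nHP control libraries, 71.5 and 71.1 in the HP control libraries, 72.5 and 61.2 in the nHP mutation libraries and 110 and 104 in the HP mutation libraries, so that its order reversed between strains while ZRT1 fell in each.

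**Figure D5:**
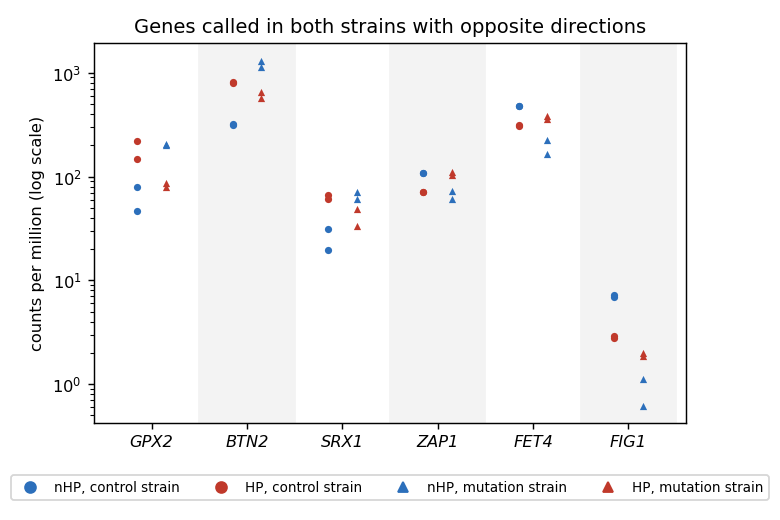
CPM on a log scale for 6 genes called in both strains with opposite directions, with 1 point per library, circles for the control and triangles for the mutation strain, red for HP and blue for nHP. In GPX2 red lies above blue among the circles (149 and 221 against 46.2 and 79.8 CPM) and below blue among the triangles, and in FIG1, FET4 and ZAP1 the order is the other way round.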

How the data were processed

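RNA sequencing of 8 libraries gave the deposited counts, whole numbers of reads per gene with no normalization, and deposited RPKM values, which the authors computed from reads per kilobase of gene and library total. Reads were processed with TopHat2 2.0.9, per the submitters' processing notes. Neither the counter, its strand setting nor the genome build is stated there. Names for 6048 of the 7126 gene IDs came from the R64 reference, which also served for neighbours and promoter sequence, and the coordinates printed are those of R64.

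The counts were analysed with edgeR 4.0.16 (R 4.3.3). Its standard filter on the 4 groups left 6174 genes. The pooled comparison used an additive model of strain and title with TMM scaling, 5 residual degrees of freedom and a common variation of 13.3%, in which change that differs between the strains adds to the spread. A model of the 4 group means (4 residual degrees of freedom, 8.07%) gave the within-strain values and the test of the difference between strains. Tests were two-sided quasi-likelihood F tests with Benjamini-Hochberg adjustment over all genes tested, and standard errors were derived from the F statistic. The limit of 3 counts reflects counting error alone, as there were no molecular identifiers. The 5 figures used Python 3.11.15 and matplotlib 3.10.9. Near copies were sought with BLAST 2.17.0. The pooled test, the rule for both strains and the test of the difference between strains were first tried on simulated data. The within-strain tests and the alternatives were not scored there.

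The members and the gene lists were chosen with earlier results of these data known. The rule named the 12 largest rises and 12 largest falls by the smaller within-strain change at a mean of at least 10 CPM, the 2 members with the smallest p of each list with 3 or more shared genes, 3 opposite genes per direction, and YAP1, SKN7, MSN2, MSN4, TRX2, TRR1, GPX2, SRX1, CCP1, CTT1, TAF10 and URA3. All others were named after their values were seen. Alternatives were DESeq2 1.42.0 and its size factors, no composition scaling, no filter, a minimum of 10 CPM in 2 libraries, limma 3.58.1 with voom or on log2 RPKM (pseudocount 1 or 0.1), the mean of the within-strain differences, a replicate block, and each library left out in turn.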

Additional observations from a re-analysis of the deposited data

Results flagged for a closer look

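Among the 46 genes named by the rule, the HP difference itself was tested between the strains in edgeR's quasi-likelihood test. After Benjamini-Hochberg adjustment 17 passed, where 29.2% of all genes tested did. That count includes the genes chosen for opposite directions, given below, and is no result about the named genes. Values are log2 fold changes, the control strain's subtracted from the mutation strain's. Of genes shared by the strains, the difference was −0.667 for MET5, 0.656 for MET2, 0.567 for VHT1, 0.811 for HBN1 and 0.627 for IZH4 among the rises. Among the falls it was 1.48 for ZRT1, 0.811 for CTR1 and 0.558 for ANB1, all of which fell further in the control strain. Another 6 genes were chosen because they were called in each strain with opposite directions, so their difference is a description and no test. It was −2.84 for GPX2, −2.36 for BTN2, −2.00 for SRX1, 1.55 for FET4, 1.29 for ZAP1 and 2.45 for FIG1. FIG1 had only 5 and 9 counts in the nHP mutation libraries. Of the peroxide genes that did not pass in the pooled test, TRR1 differed by −1.33 and TRX2 by −0.805. URA3, an auxotrophic marker gene, differed by 1.10, with 3939 and 4205 against 3676 and 3172 CPM in the control strain and 1842 and 1801 against 3456 and 3118 CPM in the mutation strain. Groups of 2 libraries were too small to test for a sample far from the others.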

How the results depend on the processing

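Under 18 alternatives, 32 of the 86 rises, 3 of the 27 falls and 16 of the 20 rising sulfur genes kept their calls throughout, and no named gene that was called in the main test changed direction. Of those not called, YAP1, SKN7, TRR1, TAF10, BTN2, FET4, GPX2, SRX1 and ZAP1 changed sign under at least 1 setting, without a call. For the mean of the within-strain differences 3 named genes not called in the main test gained a call. Without HP control replicate 2 it was 2. The 113 calls became 754 under DESeq2, 75 on log2 RPKM with a pseudocount of 1, 2237 for the mean of the within-strain differences and 70 with the replicate block. The 86 rises became 286 under DESeq2, 449 for the mean of the differences and 56 with the block. The 27 falls became 263, 366 and 14 in the same order, and 14 and 15 on log2 RPKM with a pseudocount of 1 and 0.1. Calls were 76.1% higher in the main test, 54.2% under DESeq2 and 51.5% for the mean of the differences. Leaving out 1 library gave 43 to 1817 calls, 36 to 897 rises and 5 to 807 falls, most without HP control replicate 2, where 52.7% were higher. All 113 genes were among those 1817, and 43 to 76 of them were kept with any other library left out. These fits share their libraries with the main test, so a kept call is a description. Within-strain counts ran from 51 to 218 for the control strain (121), from 1773 to 3466 for the mutation strain (3043) and from 724 to 2554 for the difference between strains (1803). Pairing by replicate number was not stated, and the deviations of same-numbered libraries from their group means had correlations of 0.0474 to 0.195. The cause of these shifts was not tested, apart from the mean of the differences, which by construction keeps strain-dependent change out of the spread. With 2 libraries per group, 150 to 295 genes differed by over 1.5-fold between replicates.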
